A study of Mus musculus with 4 samples.

Results

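Notch receptors, their ligands and their target genes were examined in the cortex of SAMP8 mice, which are inbred and senescence-prone, with or without TCQA, which is known here by that abbreviation alone. The 10 members were taken by gene symbol, with no measured value in the rule: the receptors Notch1, Notch2 and Notch3, the ligands Dll1, Dll4, Jag1 and Jag2, and the target genes Hes1, Hes5 and Hey1. All 10 were found, each on 1 probe set, among 19505 symbols measured. The TCQA group was male SAMP8 mice dosed orally at 5 mg/kg each day for 1 month from 11 months of age, and the control group was male SAMP8 mice given MilliQ water over the same time. Both groups had been kept in single cages from 7 months of age for 4 months, and each contributed 2 Clariom S arrays of brain cortex RNA. No other strain was included, and nothing in the labels ties the 2 arrays of each group to different animals, so p-values reflect only how these samples vary, and that variation may be technical.

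Notch signalling passes between touching cells. A Delta-like or Jagged ligand on one cell binds a Notch receptor on its neighbour, an ADAM protease and then gamma-secretase cut the receptor, and the freed intracellular domain joins the DNA-binding protein RBPJ and a Mastermind coactivator to switch on Hes and Hey genes, which encode basic helix-loop-helix repressors. In the brain the pathway is known for holding neural stem cells undifferentiated, for keeping astrocytes and mural cells in their state, and for choosing between tip and stalk cells in growing vessels, where Dll4 is the endothelial ligand.

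RBPJ recognises a short core, and promoters of pathway genes were read for it so that the target genes below could be seen beside their regulatory sequence. The motif searched was GTGGGAA on both strands (TTCCCAC on the other), in the RefSeq window of GRCm38.p6 from 250 bases before to 50 after each start, and no other motif was searched. It was present in 6.38% of all 32851 promoter windows, and in at least 1 window of 7.25% of 27025 genes. Of the members, 8 had a window and only Hes5 held the motif, in 2 copies. The target genes Hes1 and Hey1 had no window, so they were not searched. Of the other pathway genes in the list described below, 39 had a window and 6 held it, namely Aph1a, Hes7, Hey2, Lfng, Psen2 and Spen. The sequences that follow are those of the member with the motif, of the pathway genes with an unadjusted p under 0.05 that held it, and of the Delta-like ligands, which had the lowest p among members. Each runs 5′ to 3′ over the 250 bases before the start, with the motif in capitals, and the Hey2 sequence goes on for 3 bases because its second copy spans the start. Psen2 and Dll1 have 2 RefSeq starts each. The Psen2 start shown is the one with the motif, and the Dll1 start shown is the more upstream.
Hes5 (chr4:154960673-154960922, plus strand): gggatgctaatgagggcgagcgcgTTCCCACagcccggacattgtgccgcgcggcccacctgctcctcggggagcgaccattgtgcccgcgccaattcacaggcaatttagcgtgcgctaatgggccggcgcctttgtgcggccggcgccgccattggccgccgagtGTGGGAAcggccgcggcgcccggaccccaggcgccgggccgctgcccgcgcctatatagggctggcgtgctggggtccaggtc
Hey2 (chr10:30842781-30843033, minus strand): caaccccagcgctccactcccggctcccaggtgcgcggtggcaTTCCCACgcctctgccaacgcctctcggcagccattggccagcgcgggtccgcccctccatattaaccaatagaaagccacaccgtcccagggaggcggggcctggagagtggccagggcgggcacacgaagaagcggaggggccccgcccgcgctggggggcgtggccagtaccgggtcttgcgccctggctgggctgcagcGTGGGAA
Lfng (chr5:140607091-140607340, plus strand): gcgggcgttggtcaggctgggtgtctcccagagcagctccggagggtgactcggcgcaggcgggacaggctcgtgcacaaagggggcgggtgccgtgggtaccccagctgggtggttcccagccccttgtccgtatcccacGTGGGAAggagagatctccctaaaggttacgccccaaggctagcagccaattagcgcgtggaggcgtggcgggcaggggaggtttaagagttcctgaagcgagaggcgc
Psen2 (chr1:180245951-180246200, minus strand): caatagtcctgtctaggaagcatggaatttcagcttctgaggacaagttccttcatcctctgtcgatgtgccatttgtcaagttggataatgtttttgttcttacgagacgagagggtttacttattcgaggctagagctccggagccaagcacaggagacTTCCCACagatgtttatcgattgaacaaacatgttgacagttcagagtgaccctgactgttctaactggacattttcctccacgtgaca
Dll4 (chr2:119325534-119325783, plus strand): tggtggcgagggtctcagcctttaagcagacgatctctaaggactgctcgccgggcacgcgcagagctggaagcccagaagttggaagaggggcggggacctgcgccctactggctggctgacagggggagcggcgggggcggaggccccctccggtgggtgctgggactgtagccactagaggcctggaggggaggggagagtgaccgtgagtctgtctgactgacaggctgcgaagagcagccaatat
Dll1 (chr17:15376933-15377182, minus strand): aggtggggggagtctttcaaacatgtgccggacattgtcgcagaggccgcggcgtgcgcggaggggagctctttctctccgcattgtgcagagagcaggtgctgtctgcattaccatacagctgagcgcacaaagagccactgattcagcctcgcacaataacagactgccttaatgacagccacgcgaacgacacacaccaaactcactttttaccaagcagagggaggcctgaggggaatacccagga
The Hes5 copies begin 83 and 226 bases before the start and lie in opposite orientations. Those of Hey2 begin 4 and 207 bases before it and are also opposed. Lfng has 1 copy, 109 bases before its start, and Psen2 has 1, 89 bases before. The Dll4 and Dll1 windows hold none. A match is a run of letters and was not read as a bound site.

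The values are log2 signals after the authors' normalization, so a step of 1 is a 2-fold change, and the level of one gene's probe set cannot be set against that of another gene's. The 4 arrays correlated at 0.991 to 0.993 across genes. The median negative control probe set lay between 7.17 and 7.32, and a gene below it is called dim here. Markers of cortical excitatory neurons were read beside the cortex label, though their presence cannot show that other brain tissue was absent. Slc17a7, the vesicular glutamate transporter of cortical excitatory neurons, lay between 16.03 and 16.68 on the 4 arrays. All 9 measured markers of that list were above the negative control median on every array. Their means were also at or above the gene median of 7.14, but that median is itself below the negative control medians. Control replicate 1 stood apart in markers of tissue at the cortex surface and ventricles. It was the lowest array for 7 of 9 choroid plexus markers, with Ttr at 7.49 against 12.23 to 16.42 on the other arrays, and for 8 of 10 meningeal fibroblast markers. Where leaving it out changes a call or the sign of a named member or pathway gene, the value without it is given.

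Of the 10 members, 8 had a lower mean with TCQA and 2 a higher mean. Dll4, Dll1 and Jag2, among the 4 ligands, lay below control on both TCQA arrays, while Jag1 and the 3 receptors had overlapping arrays. Dll4 and Dll1 were the members at an unadjusted limma p under 0.05, both lower with TCQA, so 2 of 10 were lower and 0 higher, against 2.86% and 3.38% of all 22206 gene probe sets. No member passed Benjamini-Hochberg adjustment over all probe sets, and neither did any other gene (0 of 22206, smallest limma adjusted p = 0.698, with 1386, or 6.24%, at an unadjusted p under 0.05). Both TCQA arrays lay below both control arrays for 4 members and above them for 0, against 17.8% and 18.9% of all gene probe sets, or 36.6% in either direction. The median member difference, TCQA minus control, was -0.21, beside 0.01 over all gene probe sets. The count of 2 became 0 without control replicate 1 and 0 without TCQA replicate 1, and 1 without TCQA replicate 2 or without control replicate 2, where Dll4 was the member left.

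**Figure D1:**
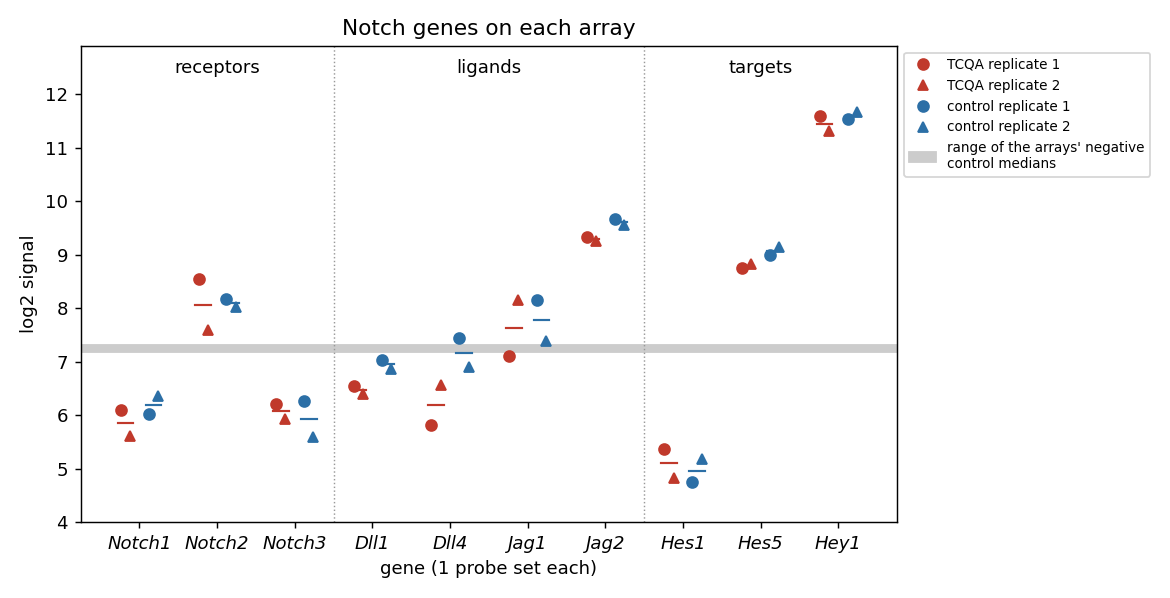
Log2 signal (vertical axis) of the 10 Notch genes (horizontal axis) on each of the 4 arrays, with group means as short lines and the range of the arrays' negative control medians as a grey band. The red TCQA points lie below both blue control points for Dll1, Dll4, Jag2 and Hes5, and heights are not comparable between genes.

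Among the ligands, Dll4, the Delta-like ligand of arterial and sprouting endothelium, gave the largest difference of any member. Its log2 signals were 5.82 and 6.57 with TCQA and 7.44 and 6.89 in control. Both TCQA arrays were below both control arrays, and only control replicate 1 lay above the median of its negative controls, so the gene was dim on 3 of 4 arrays. The TCQA mean was 6.19 ± 0.53 and the control mean 7.16 ± 0.38 (SD, n = 2 per group), and no fold is given because both TCQA values were dim. The log2 difference was -0.97 (SE 0.31, 95% confidence interval -1.73 to -0.21, limma unadjusted p = 0.0199, adjusted p = 0.787), which ranked 519th by p. It was -0.60 without TCQA replicate 1 and -0.70 without control replicate 1, where the unadjusted limma p was 0.0776 and 0.0961, and -1.35 without TCQA replicate 2. The within-group spread of Dll4 was wide, larger than that of 93.1% of gene probe sets, and without variance moderation its p was 0.171.

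Dll1, the Delta-like ligand that neuronal precursors present to neighbouring stem cells, had the second-lowest p. Its log2 signals were 6.55 and 6.40 with TCQA and 7.04 and 6.87 in control. The groups did not overlap and every array was below its negative control median. The difference was -0.48 (SE 0.18, 95% confidence interval -0.92 to -0.04, limma unadjusted p = 0.0375, adjusted p = 0.787). Leaving out any 1 array kept the direction, with differences of -0.55 and -0.40 when the first or the other TCQA array was dropped, and of -0.39 and -0.57 when the first or the other control array was. In each of those fits the unadjusted p was above the threshold, from 0.0582 to 0.163, and it was 0.0685 with an intensity trend and 0.053 without moderation.

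Jag2, a Jagged ligand, was well above the negative controls on all arrays and had the tightest replicates of the members. Its log2 signals were 9.34 and 9.25 with TCQA and 9.66 and 9.55 in control. The groups did not overlap, and the difference of -0.31 (SE 0.17, 95% confidence interval -0.74 to 0.11, limma unadjusted p = 0.122) did not reach the threshold. Its pooled standard deviation was 0.07, below that of most genes, and moderation widens such an error. Without moderation the unadjusted p was 0.0478, and the difference stayed between -0.37 and -0.26 when each array was left out.

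Jag1, the Jagged ligand of vessel walls and glia, behaved in another way. Its log2 signals were 7.11 and 8.16 with TCQA and 8.16 and 7.38 in control. Each group had 1 high and 1 low array, so the groups overlapped fully. The difference was -0.14 (SE 0.41, 95% confidence interval -1.13 to 0.85), and it was 0.39 without TCQA replicate 1 and 0.25 without control replicate 1. Its within-group spread exceeded that of 98.3% of gene probe sets. Control replicate 1 was the highest array for all 4 ligands.

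No receptor reached an unadjusted limma p under 0.05, and the arrays of the groups overlapped for all 3 of them. Notch1, the most studied receptor of neural stem cells, was at 6.11 and 5.61 on the TCQA arrays and 6.02 and 6.36 on the control arrays, all dim. The difference was -0.33 (SE 0.24, 95% confidence interval -0.91 to 0.25), and it was -0.08 without TCQA replicate 2 and -0.58 without TCQA replicate 1. Notch2, the receptor above the negative controls on all 4 arrays, was at 8.55 and 7.58 with TCQA and 8.17 and 8.02 in control. The TCQA arrays lay on either side of the control arrays and were 0.97 apart. Its difference was -0.03 (SE 0.33, 95% confidence interval -0.82 to 0.76), with -0.51 without TCQA replicate 1, 0.45 without TCQA replicate 2 and 0.05 without control replicate 1. Notch3, the receptor of pericytes and vascular smooth muscle, was at 6.22 and 5.94 with TCQA and 6.26 and 5.60 in control, dim on every array and overlapping. Its difference was 0.15 (SE 0.27, 95% confidence interval -0.50 to 0.79), with -0.19 when control replicate 2 was dropped and 0.48 without control replicate 1. The intervals of Notch2 and Notch3 allow changes of over 0.7 on the log2 scale in the upward direction, so shifts within that range cannot be told from 0 with 2 arrays a group.

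Of the target genes, Hes5, a repressor that Notch induces in neural stem cells and astrocytes, was lower on both TCQA arrays. Its log2 signals were 8.76 and 8.82 with TCQA and 8.99 and 9.14 in control, all above the negative controls. The groups did not overlap, but the difference of -0.28 (SE 0.18, 95% confidence interval -0.70 to 0.15, limma unadjusted p = 0.165) did not reach the threshold. It stayed between -0.35 and -0.20 with each array left out. Hey1, a repressor of endothelial cells and glia, was at 11.59 and 11.31 with TCQA and 11.53 and 11.67 in control, and these overlapped. Its difference was -0.15 (SE 0.19, 95% confidence interval -0.61 to 0.32), and it was -0.01 without TCQA replicate 2, the lowest array. Hes1, the Hes repressor that many signals besides Notch also induce, was at 5.37 and 4.82 with TCQA and 4.75 and 5.18 in control. All 4 values were dim and overlapped, and the difference was 0.14 (SE 0.26, 95% confidence interval -0.50 to 0.77). It was -0.14 without TCQA replicate 1 and -0.08 without control replicate 1.

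**Figure D2:**
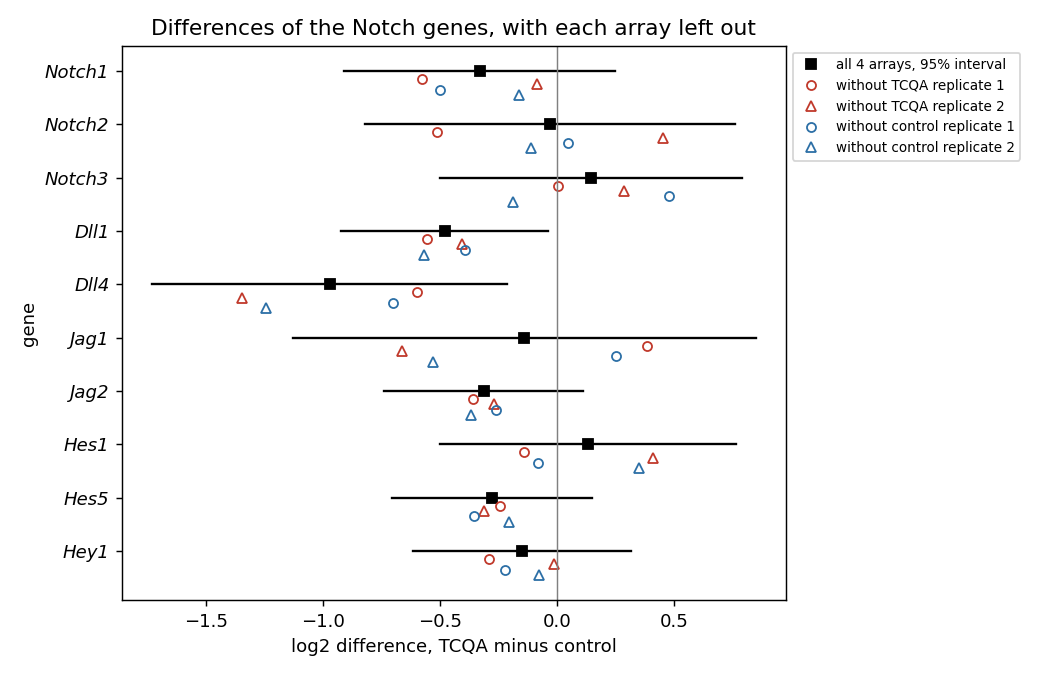
Log2 difference, TCQA minus control (horizontal axis), for each Notch gene (vertical axis): black squares with 95% confidence intervals use all 4 arrays, and open symbols leave out 1 array each. The intervals of Dll1 and Dll4 lie below 0, the other 8 include 0, and the open symbols of Notch2, Notch3, Jag1 and Hes1 fall on both sides of 0.

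The rest of the pathway was read from a list of 50 genes by role, of which 48 were measured and 2 were not analysed here. At an unadjusted limma p under 0.05, 4 of the 48 were higher with TCQA and 0 lower, against 3.38% and 2.86% of all gene probe sets, and 44 did not reach the threshold. The 4 were Lfng, Psen2, Hes6 and Hey2. The median difference over the list was 0.08, opposite in sign to the -0.21 of the members. Members and list were both chosen with earlier results of these data known, so this contrast is a description only and was not tested. Both TCQA arrays were above both control arrays for 17 of the 48 and below them for 5, against 18.9% and 17.8% of all gene probe sets. None passed adjustment over all probe sets (0 of 48, lowest limma adjusted p = 0.787). The count of 4 was 1 without TCQA replicate 1, where Dlk1 was the gene called, 0 without control replicate 1, and 3 without control replicate 2 (Hes6, Hey2 and Maml2). It was 4 without TCQA replicate 2, but these were Aph1c, Hes6, Hey2 and Snw1. The count of 0 lower did not hold with an intensity trend, where Mib1 was lower, or without moderation, where Dtx3 was.

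The genes listed as other targets, a role given by the list and not tested here, included the pair with the largest differences among the 4. Hey2, the Hey repressor of arterial and cardiac cells, was at 8.10 and 7.79 with TCQA and 7.28 and 7.43 in control. Of these, control replicate 1 alone was dim. All TCQA values exceeded all control values, and the difference was 0.59 (SE 0.20, limma unadjusted p = 0.0232, and 0.0774 without moderation). It was 0.43 without TCQA replicate 1 and 0.51 without control replicate 1, with unadjusted limma p of 0.124 and 0.0997. Hes6, which counteracts Hes1 and favours neuronal differentiation, was at 4.99 and 4.63 with TCQA and 4.13 and 4.27 in control, all dim. The difference was 0.61 (SE 0.20, limma unadjusted p = 0.022, and 0.0852 without moderation). It was 0.43 without TCQA replicate 1 and 0.54 without control replicate 1, with unadjusted limma p of 0.12 and 0.0933. Heyl, a Hey relative of mural cells, differed by 0.18 (SE 0.17) with arrays that did not overlap but were all dim. Over the 6 genes listed as other targets, 5 had a higher mean with TCQA, against 1 of the 3 targets among the members. The 5 include Hes6, which counteracts Hes1, so the count is not a measure of Notch output. Both lists were chosen with earlier results known. Over all gene probe sets, 11345 of 22206 had a higher mean. All arrays were dim for 5 of the 6 and for 1 of the 3, which limits this reading. The difference between Hey2 and Hes5 was not tested.

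Upstream of the nucleus, Lfng, the Fringe glycosyltransferase that favours Delta over Jagged ligands, was at 8.68 and 8.67 with TCQA and 8.12 and 8.27 in control. The difference was 0.48 (SE 0.17, limma unadjusted p = 0.0324). It stayed between 0.41 and 0.55 with each array left out, where the unadjusted limma p ran from 0.0617 to 0.143. Poglut1, which adds glucose to the receptor, differed by 0.14 (SE 0.17). Psen2, a catalytic subunit of gamma-secretase, was at 6.53 and 6.53 with TCQA and 5.96 and 6.14 in control, all dim. The difference was 0.48 (SE 0.18, limma unadjusted p = 0.035, and 0.0731 with an intensity trend). It stayed between 0.39 and 0.57 with each array left out, with unadjusted p of 0.0567 to 0.16. Psenen, another subunit of that complex, differed by 0.29 (SE 0.19) with arrays that did not overlap. Mib1, the ubiquitin ligase that drives endocytosis of ligands, differed by -0.28 (SE 0.18) and the Deltex gene Dtx2 by -0.26 (SE 0.19), both without overlap.

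In the nuclear complex, Rbpj, the DNA-binding partner of the Notch intracellular domain, was at 10.64 and 10.56 with TCQA and 10.60 and 10.62 in control. The groups overlapped and the difference was -0.01 (SE 0.17, 95% confidence interval -0.43 to 0.41). The corepressor gene Spen differed by 0.41 (SE 0.18, limma unadjusted p = 0.0585) and Snw1, a coregulator bound by RBPJ complexes, by 0.46 (SE 0.21, limma unadjusted p = 0.065). The Snw1 difference was 0.31 without control replicate 1 and 0.32 without TCQA replicate 1, and its unadjusted limma p was 0.0484 without TCQA replicate 2. Notch4, the endothelial receptor, was dim and differed by 0.18 (SE 0.25), and by -0.11 without control replicate 1. Of the remaining ligands, Dner, a neuronal Delta-like protein, differed by 0.25 (SE 0.17), Dll3, a Delta-like protein that does not activate the receptor, by 0.10 (SE 0.18) at dim levels, and Dlk2 by 0.18 (SE 0.22), with -0.07 without TCQA replicate 1. Dlk1, a Delta-like homologue, had the largest difference of the list and one of the widest spreads, at 5.91 and 8.11 with TCQA and 5.64 and 7.14 in control. Its difference was 0.62 (SE 0.77), and dropping the first or the other TCQA array gave 1.72 and -0.48, while dropping the first or the other control array gave -0.13 and 1.37. The 7 genes whose promoter window held the motif, singled out after their values were seen, were Hes5, lower with TCQA on both arrays, Hey2, Lfng, Psen2, Spen and Hes7, higher on both, and Aph1a, which overlapped and differed by -0.06. Over all gene probe sets 17.8% were lower and 18.9% higher on both arrays. For Hes7 all arrays were dim and the groups were barely apart, with the nearest arrays at 7.06 and 7.05. Its difference was 0.16 (SE 0.19).

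**Figure D3:**
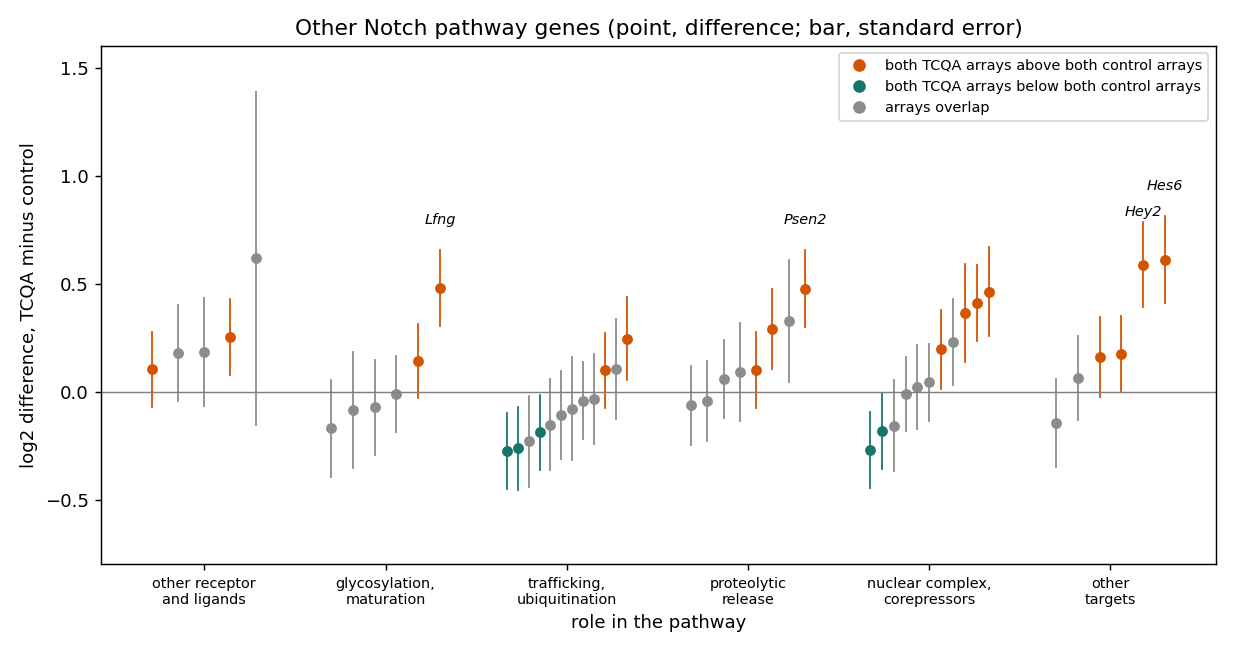
Log2 difference, TCQA minus control (vertical axis), with its standard error as a bar, for the 48 other Notch pathway genes grouped by role (horizontal axis). Orange genes are higher on both TCQA arrays, green genes lower on both and grey genes overlap, and the 4 genes at an unadjusted p under 0.05 are named, all above 0.

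Cell type markers on the same arrays are given beside these values, since in bulk tissue fewer cells of a type and less RNA per cell cannot be told apart. Endothelial cells are a source of Dll4, and of 12 endothelial markers 9 had a higher mean with TCQA, with a median difference of 0.13. At an unadjusted limma p under 0.05, 3 were higher and 0 lower. The 3 were Ly6c1, at 0.46 (SE 0.18), Slco1a4, at 0.47 (SE 0.18), and Slc2a1, at 0.57 (SE 0.19). Of all gene probe sets, the share for this and each list below, 3.38% were higher and 2.86% lower at that p. The endothelial list means were 9.66 and 9.78 with TCQA and 9.57 and 9.53 in control. Of the 12, 8 were higher and 2 lower on both TCQA arrays, against 18.9% and 17.8% of all gene probe sets. The 2 lower ones were Tek, at -0.33 (SE 0.20) and dim on all arrays, and Pecam1, at -0.26 (SE 0.18). The part of endothelial cells in the Dll4 value was not tested. Astrocytes express Hes5, and 8 of 10 astrocyte markers had a higher mean, with a median of 0.22 and list means of 12.45 and 12.63 against 12.30 and 12.38. At an unadjusted limma p under 0.05, 0 of the 10 were higher and 0 lower. Over all gene probe sets, 11345 of 22206 had a higher mean. Of the excitatory neuron markers 7 of 9 had a lower mean, the median was -0.28, and 3 were lower and 0 higher at an unadjusted p under 0.05. Their list means were 13.02 and 12.56 with TCQA and 13.16 and 12.93 in control, and their part in the ligand values was not tested. Of the inhibitory neuron markers 6 of 9 had a higher mean, with a median of 0.38 and 2 higher and 0 lower at that p. The inhibitory list means were 11.03 and 10.99 with TCQA and 10.59 and 10.71 in control. Pericyte and smooth muscle markers, the cells of Notch3, had a median of 0.10, with 1 of 10 higher and 0 lower at that p. For meningeal fibroblast markers the median was 0.54, and 4 of 10 were higher and 0 lower at that p, with list means of 8.20 and 8.29 against 7.35 and 7.99, the lowest on control replicate 1. Their part, and that of control replicate 1, in the Hey2 value was not tested beyond the fit without that array.

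**Figure D4:**
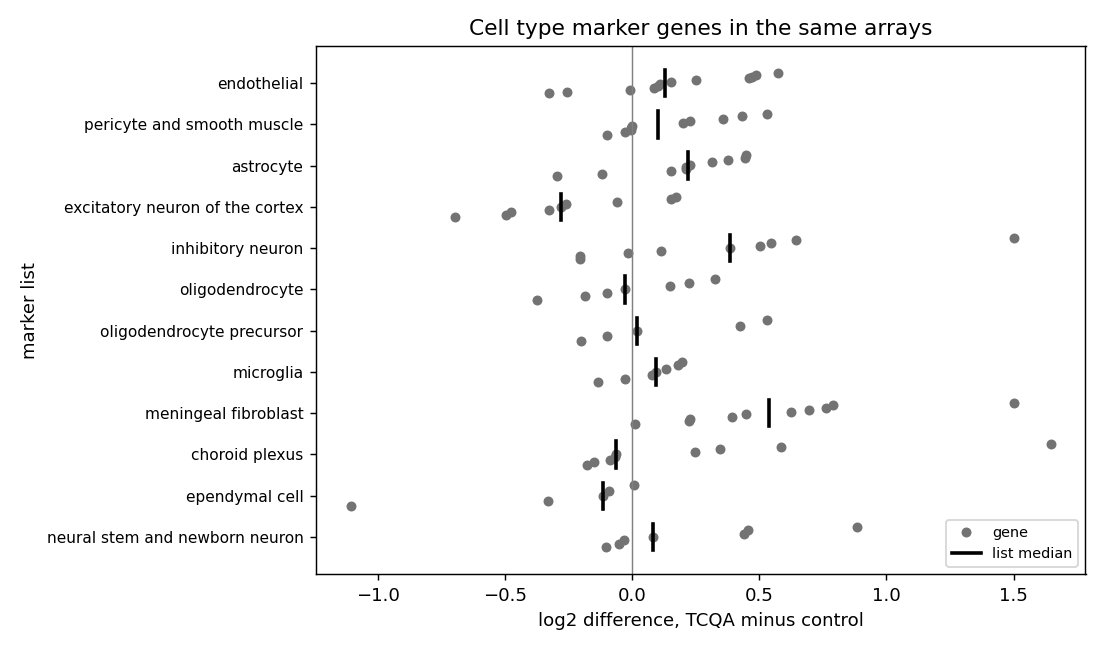
Log2 difference, TCQA minus control (horizontal axis), of cell type marker genes (grey points) by list (vertical axis), with list medians as black bars. The excitatory neuron median is at -0.28, the endothelial median at 0.13 and the astrocyte median at 0.22.

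The genes whose 4-array pattern was closest to that of Dll4 were taken among the 10022 symbols with a mean at or above the gene median, by the root mean square difference of log2 values after each gene's own mean was removed. They were Xlr4c at 0.149, Xlr4b at 0.157 and Rapgefl1 at 0.172. Xlr4c and Xlr4b are close copies of one gene family and may share probe signal. With 4 arrays this likeness is a description only, and it includes the group difference that Dll4 was reported for.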

How the data were processed

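Brain cortex RNA (100 ng) of 4 samples was hybridised to Clariom S mouse arrays, per the labels' protocols. The deposited log2 signals, 1 per probe set, were made by the authors with SST-RMA in the Transcriptome Analysis Console 4.0.2, per the labels' protocols. That algorithm brings arrays to a common distribution, so an overall shift between groups would be removed. The submitters' processing notes also name RMA and limma. For the array annotation, a genome build is not given in the sources used.

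Of 28846 probe sets, 6640 were controls and 22206 entered the fit. Of these, 19572 had 1 platform symbol, 0 several and 2634 none, and the brightest probe set stood for a symbol. TCQA was compared with control by limma 3.58.1 (R 4.3.3; lmFit, eBayes, two-sided, 2 residual degrees of freedom, Benjamini-Hochberg over all 22206). The procedure was tested on simulated data. No detection filter was used. The number of arrays limits the precision: standard errors of log2 differences had a median of 0.20. Samples were grouped by title.

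The members, gene lists and rule for named genes (all members; in each pathway role the 2 lowest p, any at an unadjusted p under 0.05, and Rbpj, Notch4, Hey2, Heyl, Lfng, Dll3 and Dner; up to 3 markers a list; the 3 genes most like the member with the lowest p) were chosen with earlier results of these data known. Eomes, Ttr, Tek, Ly6c1, Slco1a4, Slc2a1, Dlk1, Dtx3, Aph1c and Maml2 and the genes named for a motif were singled out after their values were seen. So were Calb2, Adarb2, Pvalb, Sst and Vip. Alternatives left out each array, added the replicate number as a block, or centred or quantile-normalized the arrays. Others left out probe sets with a mean below the gene median, or changed the variance moderation. Promoter sequences are from RefSeq, GRCm38.p6. Same-numbered arrays did not deviate together (correlation 0.05 over 22206 probe sets).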

Additional observations from a re-analysis of the deposited data

How the results depend on the processing

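Over the members' single differences, 78 of the comparisons with an alternative kept direction and side of the unadjusted threshold, 9 lost the threshold, 1 passed it (Jag2 without moderation) and 7 reversed, all 7 when 1 array was left out. The reversing members ranged from -0.51 to 0.45 for Notch2, from -0.19 to 0.48 for Notch3, from -0.66 to 0.39 for Jag1 and from -0.14 to 0.41 for Hes1. The count of members at an unadjusted p under 0.05, 2 with all arrays, was 1 with an intensity trend (Dll4) and 1 without moderation (Jag2). It was 0 of the 5 members that remained when probe sets with a mean below the gene median of 7.14 were left out. The count for the other pathway genes, 4 with all arrays, was 6 with an intensity trend (1 of them lower, Mib1) and 5 without moderation (1 lower, Dtx3). The genes called changed as well as the count. Psen2 was not called with an intensity trend, and Hey2 and Hes6 were not called without moderation. The count past the adjusted threshold over all genes was 0 in every fit with 4 arrays and 0 to 4 with an array left out, 4 of them without TCQA replicate 1 and none of them a Notch member. The median member difference stayed between -0.32 and -0.15 in all alternatives. With the replicate number as a block, 2 members were called, Dll1 and Dll4, and 5 of the other pathway genes, with Dlk1 added; the correlation of same-numbered deviations was 0.05, so the numbers were not taken to pair the arrays. Median centring and quantile normalization left the direction of all 10 members and both calls as they were. The causes of these changes were not tested. Signal limits the reading of Notch1, Notch3, Dll1 and Hes1, which were below the negative control median on all arrays.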

Other observations

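Markers of neural stem cells and newborn neurons, the cells in which Notch restrains differentiation, had a median difference of 0.08 over 7 measured genes. At an unadjusted limma p under 0.05, 0 were higher and 0 lower, against 3.38% and 2.86% of all gene probe sets. Nes, the first gene of the list, overlapped between groups at dim levels and differed by 0.44 (SE 0.28). Sox2, a stem cell and astrocyte factor, was at 10.47 and 10.50 with TCQA and 10.37 and 10.43 in control, a difference of 0.08 (SE 0.17). Dcx, a microtubule protein of migrating newborn neurons, overlapped between groups and differed by -0.05 (SE 0.28). Eomes, a factor of intermediate progenitors, was at 7.87 on TCQA replicate 1 and between 4.62 and 5.36 on the other 3 arrays, so its group difference of 0.88 (SE 0.94) rests on that array. Oligodendrocyte precursor markers, another lineage that Notch holds back, had a median of 0.02 over 5 genes, with 1 higher and 0 lower at that p.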
